A study of Mus musculus with 4 samples.

Results

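Lin28a, Lin28b, L1td1, Igf2bp1, Igf2bp2 and Igf2bp3 encode RNA-binding proteins of stem cells and embryos, and their transcripts were followed on Affymetrix arrays of 4 mouse stem cell cultures. The members were chosen by name: every probe set, which is a group of short probes read as 1 value, whose platform annotation gives 1 of these symbols was used. That gave 14 of 45037 probe sets, for 5 of the 6 genes; Igf2bp2 was not analysed here. The arrays hold RNA of GS cells, of mGS cells, of the ES line R1 and of GS cells from Trp53 KO mice, whose title adds the name ICR. GS stands for germline stem cells, the cultured form of spermatogonial stem cells, and mGS for multipotent germline stem cells, which resemble embryonic stem (ES) cells. GS and Trp53 KO cells grew in a medium for GS cells based on StemPro-34, and the medium of mGS and ES cells was a standard ES medium, so cell type and medium cannot be told apart between those pairs. The labels give the strain of no other culture and say nothing about feeder cells, passages or the number of cultures behind an RNA. With 1 array per group there is no replicate check of any difference below and no p-value, and precision is limited by that number.

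LIN28A and LIN28B bind precursors of the let-7 microRNAs through a cold shock domain and zinc knuckles, recruit uridylating enzymes to them and so keep mature let-7 low in embryonic and stem cells. LIN28A is also a marker of undifferentiated spermatogonia in the mouse testis. L1TD1 is an RNA-binding protein that descends from the open reading frame of a LINE-1 retrotransposon, is abundant in ES cells and, in human ES cells, is found with LIN28 in ribonucleoprotein particles. The IGF2BP proteins carry RNA recognition and KH domains, bind mRNAs such as those of Igf2, Actb and Myc, govern their location, stability and translation, and are mostly silenced after birth. The mRNAs of Lin28b, Igf2bp1 and Igf2bp3 are themselves known targets of let-7.

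The microRNAs that LIN28 proteins act on are shown first, because genes known as their targets are described further on; that list was taken by name and not by a search for the seed. The RefSeq microRNA table of GRCm38.p6 holds 12 hairpins of let-7 and miR-98 whose mature strand carries the same seed, bases 2 to 8, in capitals here:
let-7a-5p: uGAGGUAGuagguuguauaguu
let-7g-5p: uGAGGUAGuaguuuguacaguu
miR-98-5p: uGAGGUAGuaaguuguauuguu
The zinc knuckles of LIN28A recognise the letters GGAG in the loop of a precursor. In the stretch between the mature arms, on the strand of the RNA only, 8 of the 11 hairpins with both arms in the table hold these letters and 3 do not, against 8.07% of 644 mouse hairpins with both arms. The hairpins of let-7g (chr9:106178840-106178927, plus strand) and let-7f-1 (chr13:48537829-48537917, minus strand) have the letters, in capitals, and that of let-7b (chr15:85707319-85707403, plus strand) lacks them:
let-7g hairpin: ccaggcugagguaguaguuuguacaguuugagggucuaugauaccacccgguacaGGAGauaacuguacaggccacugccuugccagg
let-7f-1 hairpin: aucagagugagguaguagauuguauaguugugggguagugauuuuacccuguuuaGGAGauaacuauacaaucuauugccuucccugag
let-7b hairpin: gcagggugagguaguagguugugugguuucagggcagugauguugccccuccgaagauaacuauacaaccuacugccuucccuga
A match of letters is a description and not a measured binding site, and no microRNA level was analysed here.

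Signals are given on a linear scale after quantile normalization, which gives every array the same distribution. A signal under the array median, 82.7, was raised to it, so that a difference against it is a bound, written as at least N-fold. A probe set or gene was counted as different past 2-fold. Markers fitted the labels: summed over 15 genes, pluripotency markers read 129000 on the mGS and 110000 on the ES array against 13300 on the GS and 16300 on the Trp53 KO array. Markers of undifferentiated spermatogonia and germ cells, 14 genes, read 104000 and 106000 on the GS and Trp53 KO arrays against 13000 and 7640 on the mGS and ES arrays. Gene by gene, 13 of the 14 were at least 2-fold lower on the mGS than on the GS array, against 16.5% of all genes. The exception, Etv5, was 3.25-fold higher on the mGS array, where 15.3% of all genes passed 2-fold upward. Within these sums the GS and Trp53 KO arrays differed. The Trp53 KO array had 3 of 12 pluripotency markers past 2-fold upward from GS and 1 downward. Upward went Klf2, by 6.45-fold, Utf1, by 3.27-fold, and Dppa4, by 2.39-fold, and downward Sox2, by 5.79-fold. Among the 14 germ cell markers, 5, namely Gfra1, Ret, Etv5, Bcl6b and Lhx1, were at least 2-fold lower on that array and 0 higher. Over all genes, 9.77% passed 2-fold upward and 6.93% downward on the Trp53 KO array. Of 10 markers of differentiating spermatogonia and meiosis, 4 were higher there, among them Stra8 by 7.19-fold, and 3 lower. Endoderm, mesoderm, Sertoli and leukocyte markers passed the floor for 1 to 4 genes a list on each array, of 6 to 8 measured, and neuroectoderm markers for 1 to 4 of 7. Single genes of these lists were bright all the same, as Afp, which read 2646 on the GS and 2784 on the Trp53 KO array, and Zic1, which read 5085 on the GS array and under the floor elsewhere. Added control RNAs differed between arrays: the dap poly-A control read 271 and 255 on the GS and mGS arrays and 2545 and 3055 on the ES and Trp53 KO arrays, and the hybridisation control bioC read 602 on the Trp53 KO array and 3066 to 3499 on the other arrays. Whether these control signals have a part in the members' differences was not tested.

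Of the 14 probe sets, 13 lay above the floor on at least 1 array and 10 on all 4. Between mGS and GS, 5 of 13 probe sets passed 2-fold upward on the mGS array and 6 passed it downward, against 14.5% and 14.7% of all 25514 probe sets compared. Between ES and mGS, 7 were higher and 2 lower on the ES array, against 6.69% and 6.01% of all. Between ES and GS, 6 were higher and 1 lower, against 16.2% and 17.0%. Between Trp53 KO and GS, none of 12 was higher and 2 were lower, against 8.36% and 8.40%. Probe sets of 1 gene are not independent readings, so these counts rest on at most 4 genes. Between Trp53 KO and GS they rest on fewer, since L1td1 lay under the floor on both arrays. The comparisons with GS share the GS array.

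**Figure D1:**
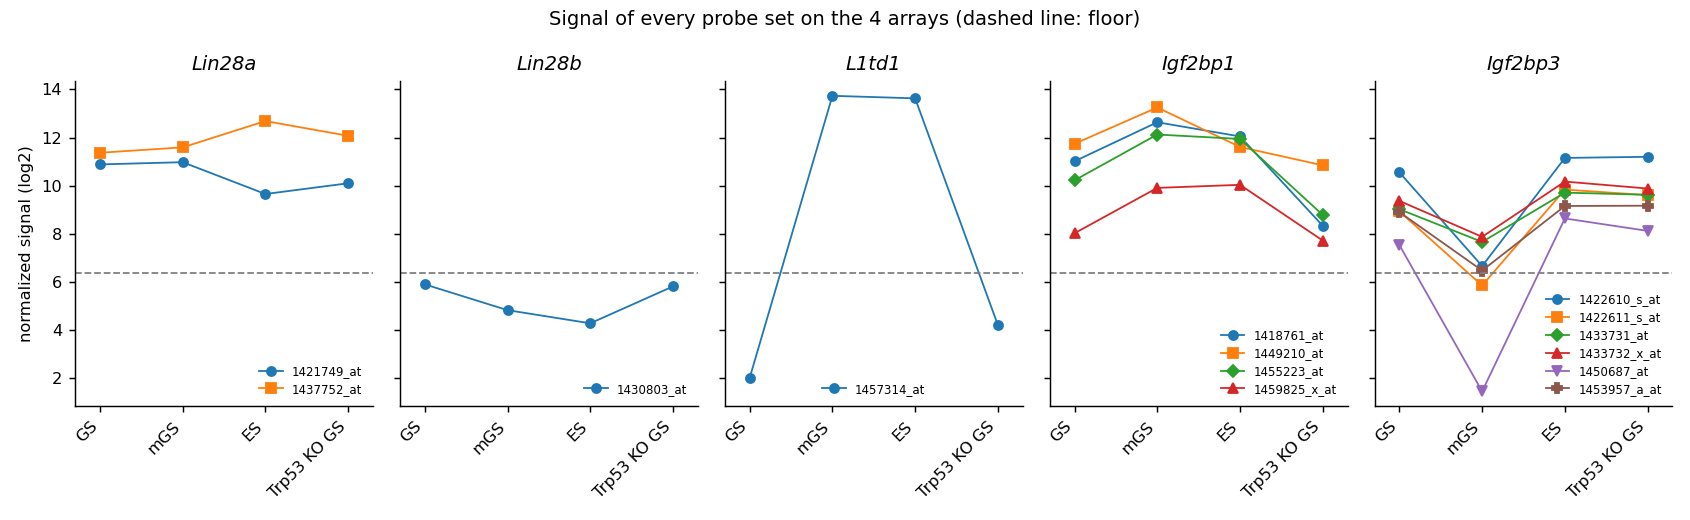
Normalized signal on the log2 scale (y axis) of each of the 14 probe sets on the 4 arrays (x axis), 1 panel per gene and 1 line per probe set; the dashed line is the floor. L1td1 stood above the floor on the mGS and ES arrays alone, all 6 Igf2bp3 probe sets were lowest on the mGS array, and the 2 Lin28a probe sets parted on the ES and Trp53 KO arrays.

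Lin28a was present in all 4 cultures, with no 2-fold difference between mGS and GS. Probe set 1437752_at read 2643 on the GS, 3086 on the mGS, 6583 on the ES and 4303 on the Trp53 KO array. Probe set 1421749_at read 1889, 2014, 805 and 1098 on the same arrays. By the first the ES array was highest and by the second it was lowest, so the order of the cultures depends on the probe set. Against GS, the log2 differences of the mGS array were 0.22 and 0.09, those of the ES array 1.32 and -1.23, and those of the Trp53 KO array 0.70 and -0.78, for 1437752_at and 1421749_at in turn. Both probe sets thus gave nearly the same value for mGS against GS and opposite directions for the other comparisons with GS.

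The log2 ratio of 1437752_at to 1421749_at within an array was 0.49 for GS and 0.62 for mGS, against 3.03 for ES and 1.97 for Trp53 KO. The arrays with the wide ratios are those with the high dap control, and the part of that control in the ratio was not tested. Between ES and mGS the probe sets of Lin28a lay 2.42 apart on the log2 scale. Of 4663 genes with at least 2 probe sets above the floor on both arrays, 0.836% had so wide a range, and 16 genes, Lin28a among them, had probe sets at least 2-fold apart in both directions. Between mGS and GS the range of Lin28a was 0.13, and 85.0% of 4474 genes had a range as wide or wider. The ratio shows unequal change between the probe sets and does not show which of them follows the whole Lin28a transcript.

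Lin28b, the paralogue of Lin28a, was not detected above the floor on any array. Its probe set 1430803_at read 59.8 on the GS, 28.4 on the mGS, 19.4 on the ES and 56.4 on the Trp53 KO array, all under 82.7. No fold is given for it, and a signal under the floor says only that the transcript was not detectable with this probe set.

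Most genes that process let-7 or destroy it stayed within 2-fold between the cultures. Of 20 such genes, all measured, 19 were compared between mGS and GS, and 2 passed 2-fold upward on the mGS array and 1 downward, against 15.3% and 16.5% of all genes, with a median log2 difference of 0.31 against -0.04 over all genes. Ago2, the slicing Argonaute, read 595 on the GS, 2553 on the mGS, 3125 on the ES and 165 on the Trp53 KO array. It was 4.29-fold higher on the mGS and 3.61-fold lower on the Trp53 KO array than on the GS array, so it was high on both arrays of the ES medium. Trim25, a ubiquitin ligase that aids uridylation of let-7 precursors, read 1820, 5057, 2194 and 837 in the same order, and was 2.78-fold higher on the mGS than on the GS array.

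The enzymes that act after LIN28A binds were present in all cultures. Tut4, which adds uridines to let-7 precursors held by LIN28A, read 2884 on the GS array and 1353 to 1485 on the other arrays, and was 2.13-fold lower on the mGS than on the GS array. Tut7, its partner enzyme, read 643 to 717 on all 4 arrays. Dis3l2, the exonuclease that degrades uridylated let-7 precursors, read 252 on the GS, 346 on the mGS, 174 on the ES and 150.2 on the Trp53 KO array, a span that passed 2-fold between mGS and Trp53 KO alone. Between ES and mGS, 1 of 19 processing genes, Trim25, was lower, by 2.31-fold, and none higher. Over all genes these shares were 5.13% and 6.90%, and the list median was 0.00. Between Trp53 KO and GS, 2 of 20 were higher and 3 lower, against 9.77% and 6.93%, with a median of -0.03. The higher ones were Ago4, by at least 2.14-fold, and Hnrnpa1, by 2.05-fold. The lower ones were Ago2, Trim25 and Drosha, the nuclease of the first cut, by 2.57-fold.

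Genes known as let-7 targets went both ways between mGS and GS. Of 24 listed, 20 were measured, and of 19 compared 4 passed 2-fold upward and 2 downward on the mGS array; their median log2 difference was 0.06 against -0.04 over all genes. Over all genes 15.3% passed upward and 16.5% downward, so the targets' counts lay near the shares of all genes. Hmga2, a chromatin architecture gene with many let-7 sites, read 95.4 on the GS, 443 on the mGS, 2381 on the ES and 136 on the Trp53 KO array. It was 4.64-fold higher on the mGS than on the GS array and 5.38-fold higher on the ES than on the mGS array. Myc, a growth transcription factor gene, read 5.14 and 12.8 on the GS and Trp53 KO arrays, under the floor, against 1835 and 1850 on the mGS and ES arrays, at least 22.2-fold higher on the mGS than on the GS array. Mycn, its paralogue, and Cdk6, a G1 kinase gene, were 2.51-fold and 2.48-fold higher on the mGS array, while Ccnd2, a G1 cyclin gene, and Igf1r, the receptor gene of insulin-like growth factors, were 23.2-fold and 3.54-fold lower.

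From mGS to ES, 3 of 18 let-7 targets passed 2-fold upward and 0 downward, against 6.90% and 5.13% of all genes, and the median was 0.32 against 0.00; beside Hmga2 these were Ccnd2, by 7.84-fold, and Ccnd1, by 2.93-fold. In the same comparison 19 of 22 fibroblast markers, described with Igf2bp3, passed 2-fold upward on the ES array as well, and their part in the values of these 3 genes was not tested. Between Trp53 KO and GS, none of 18 was higher and 3 were lower, against 9.77% and 6.93% of all genes, with a median of -0.19 against 0.07 over all genes. Ccnd1 was 7.95-fold lower, Cdc34, a ubiquitin-conjugating enzyme gene, 2.10-fold and Trim71, which encodes a stem cell ubiquitin ligase and RNA-binding protein, 2.06-fold. Trim71 read 4518 on the GS, 3183 on the mGS, 2331 on the ES and 2189 on the Trp53 KO array and so was well above the floor in all cultures.

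L1td1 divided the arrays into those of the ES medium and those of the GS medium. Its probe set 1457314_at read 13620 on the mGS and 12660 on the ES array, and 4.04 and 18.5 on the GS and Trp53 KO arrays, where it lay under the floor. The mGS signal was at least 165-fold above that of GS and the ES signal at least 153-fold, while mGS and ES differed by 1.08-fold. Among the 12897 genes that reached the floor somewhere, 7.65% passed 2-fold on both arrays of the ES medium against both of the GS medium, and L1td1 was among them with a gap of at least 153-fold. The size of the bound follows the floor: the mGS minus GS difference was 8.82 on the log2 scale with a floor at the 30th percentile and 6.47 with a floor at the 60th, against 7.36 at the median.

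The genes with the profile most like that of L1td1 over the 4 arrays, of 12291 compared by Euclidean distance between centred log2 values, were Tdgf1, a Nodal co-receptor gene, at 0.17, Stmn2, a microtubule regulator gene of neurons, at 1.18, and Tet1, a 5-methylcytosine dioxygenase gene, at 1.29. With both GS medium values at the floor, likeness to L1td1 rests on the mGS and ES values. The promoter of L1td1 is shown because the gene was under the floor in the GS medium and bright in the ES medium. It spans 300 bases, from 250 before the start site to 50 after it, at chr4:98726504-98726803 of GRCm38.p6 on the plus strand, from RefSeq:
L1td1 promoter: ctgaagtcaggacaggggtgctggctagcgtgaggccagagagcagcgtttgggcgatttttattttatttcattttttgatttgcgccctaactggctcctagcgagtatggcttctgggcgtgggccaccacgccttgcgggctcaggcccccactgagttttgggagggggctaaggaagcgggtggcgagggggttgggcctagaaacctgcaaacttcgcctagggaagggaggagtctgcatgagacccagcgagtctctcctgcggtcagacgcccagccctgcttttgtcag
This window holds 14 CpG dinucleotides, against a median of 7 and quartiles of 3 and 20 over 32851 mouse promoters. On neither strand does it hold the octamer ATGCAAAT of POU factors, the E-box CACGTG, the TATA box letters TATAAA, or the letters CCAAT; 1.74%, 7.15%, 13.6% and 37.4% of all promoters hold these letters, in that order.

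Igf2bp1 was highest on the mGS array by 3 of its 4 probe sets and lowest on the Trp53 KO array by all 4. Probe set 1449210_at, the brightest of its 4, read 3422 on the GS, 9733 on the mGS, 3124 on the ES and 1839 on the Trp53 KO array. Probe set 1418761_at read 2067, 6365, 4227 and 322.5 on the same arrays, and 1455223_at read 1195, 4466, 3934 and 440.5. The Trp53 KO array was lowest by all of them, and the mGS array was highest by these 3, while 1459825_x_at, which read 260 on the GS, 961 on the mGS, 1049 on the ES and 211 on the Trp53 KO array, was highest on the ES array.

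All 4 Igf2bp1 probe sets passed 2-fold upward on the mGS against the GS array, by 2.84-fold to 3.74-fold, against 14.5% of all probe sets. The log2 differences of the 4 spanned 0.39. Set against the Trp53 KO array instead, a comparison chosen after seeing the data, the mGS array was 4.56-fold to 19.7-fold higher by all 4, and 18.1% of all probe sets passed 2-fold upward there. For ES the probe sets parted. Against GS, 3 were 2.05-fold to 4.03-fold higher on the ES array, where 16.2% of all probe sets passed 2-fold upward, and 1449210_at was 1.10-fold lower. Against mGS, 1449210_at was 3.12-fold lower on the ES array, and the other 3 lay between 1.51-fold lower and 1.09-fold higher. Averaging the probe sets moved the ES minus mGS difference of the gene from -1.64 to -0.57 on the log2 scale, and the ES minus GS difference from -0.13 to 1.16. Both arrays of the ES medium were thus higher than both of the GS medium by the other 3 probe sets, by 2.05-fold to 3.69-fold, as 7.01% of all probe sets were at 2-fold or more, but not by 1449210_at. Averaged, the gene stood apart by medium at 1.16 on the log2 scale.

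On the Trp53 KO array all 4 probe sets of Igf2bp1 read lower than on the GS array. Of these, 2 passed 2-fold, against 8.40% of all probe sets, 1418761_at by 6.41-fold and 1455223_at by 2.71-fold. The other 2 were 1.86-fold and 1.23-fold lower. Their range of 2.38 on the log2 scale was matched by 0.807% of 4710 genes with at least 2 probe sets, so the size of the difference depends on the probe set. A range can only widen as probe sets are added, and that share sets the 4 of Igf2bp1 against genes with fewer as well. The bioC control and 5 of 14 markers of undifferentiated spermatogonia and germ cells were lower on this array as well, and their part in the difference was not tested. Among all probe sets, 2.90% passed 2-fold downward on the Trp53 KO array against each of the other 3. By that gap, with signals under the floor raised to it, 1418761_at ranked 30 of 27844, 1455223_at 316, 1449210_at, the brightest, 1366 and 1459825_x_at 3527. The genes nearest in profile to the brightest Igf2bp1 probe set were Tatdn3, at a distance of 0.26, Cenpx, a kinetochore and DNA repair gene, at 0.34, and Kcnq1ot1, an imprinted antisense transcript, at 0.37.

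**Figure D2:**
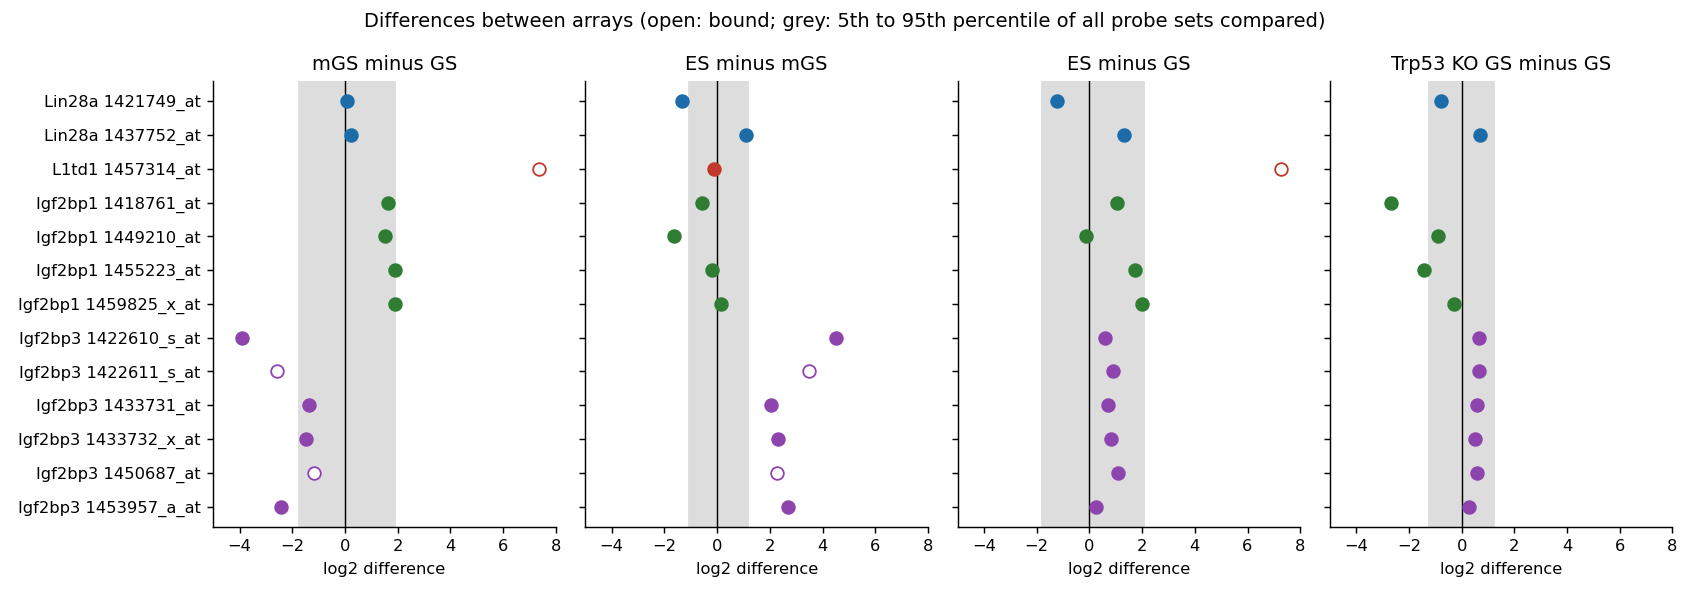
Log2 difference (x axis) of the 13 probe sets above the floor somewhere (y axis) in 4 comparisons; open circles are bounds and the grey band runs from the 5th to the 95th percentile of all probe sets compared. Igf2bp1 lay to the right and Igf2bp3 to the left for mGS minus GS, where the band ran from -1.73 to 1.89. Inside that band lay 1449210_at, 1418761_at and 1459825_x_at of Igf2bp1 and 1433731_at, 1433732_x_at and 1450687_at of Igf2bp3. All 6 Igf2bp3 probe sets lay to the right of the band for ES minus mGS.

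Igf2bp3 was low on the mGS array alone. Probe set 1422610_s_at, the brightest of its 6, read 1504 on the GS, 2277 on the ES and 2352 on the Trp53 KO array, against 101 on the mGS array, just above the floor. Probe set 1433731_at read 520 on the GS, 838 on the ES and 788 on the Trp53 KO array against 203 on the mGS array. Probe set 1450687_at read 185, 398.5 and 279 on those arrays against 2.74 on the mGS array. The other 3 read 478 to 1152 on the GS, ES and Trp53 KO arrays and 57.8 to 235 on the mGS array, so the mGS value and the other values did not overlap within any probe set.

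All 6 Igf2bp3 probe sets passed 2-fold downward on the mGS against the GS array, against 14.7% of all probe sets. The Igf2bp3 probe sets above the floor on both arrays were 2.57-fold to 14.9-fold lower, and 1422611_s_at and 1450687_at at least 5.91-fold and at least 2.24-fold. All 6 passed 2-fold upward on the ES against the mGS array, against 6.69% of all probe sets. They did so by 4.13-fold to 22.5-fold where both arrays were above the floor. For 1422611_s_at and 1450687_at it was by at least 11.1-fold and at least 4.82-fold. ES and Trp53 KO stood close to GS: 5 of 6 probe sets lay within 2-fold between ES and GS, and 1450687_at was 2.15-fold higher on the ES array. The Trp53 KO array was 1.20-fold to 1.60-fold higher than the GS array by all 6. The directions of Igf2bp1 and Igf2bp3, which encode close paralogues, were thus opposite for mGS against GS by every probe set of both genes.

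Set against each of the other 3 arrays, a division chosen after the Igf2bp3 values were seen, 151 of 12897 genes, or 1.17%, passed 2-fold downward on the mGS array. With signals raised to the floor, Igf2bp3 had the widest gap of all 12897 genes, 14.9-fold. Next came Slc5a3, a myo-inositol transporter gene, at 8.25-fold, Ccnd2 at 7.84-fold and Nfix, a transcription factor gene, at least 7.74-fold. That rank rests on 1422610_s_at, since a gene took its brightest probe set. It also rests on the floor, because the gap of a gene under it on the mGS array, as Nfix was, is a bound and may be wider. Among single probe sets, of which 0.973% passed 2-fold in this way, the 6 of Igf2bp3 ranked 1, 10, 12, 74, 111 and 177 of 27844. Of these, ranks 10 and 177, of 1422611_s_at and 1450687_at, come from bounds. Without the probe sets named _x_at and _s_at, which can match more than 1 transcript, the mGS minus GS difference of the gene was -1.36 in place of -3.89 on the log2 scale. The nearest genes in profile were Vasn, at a distance of 1.54, Nfix at 1.56 and Slc5a3 at 1.59.

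**Figure D3:**
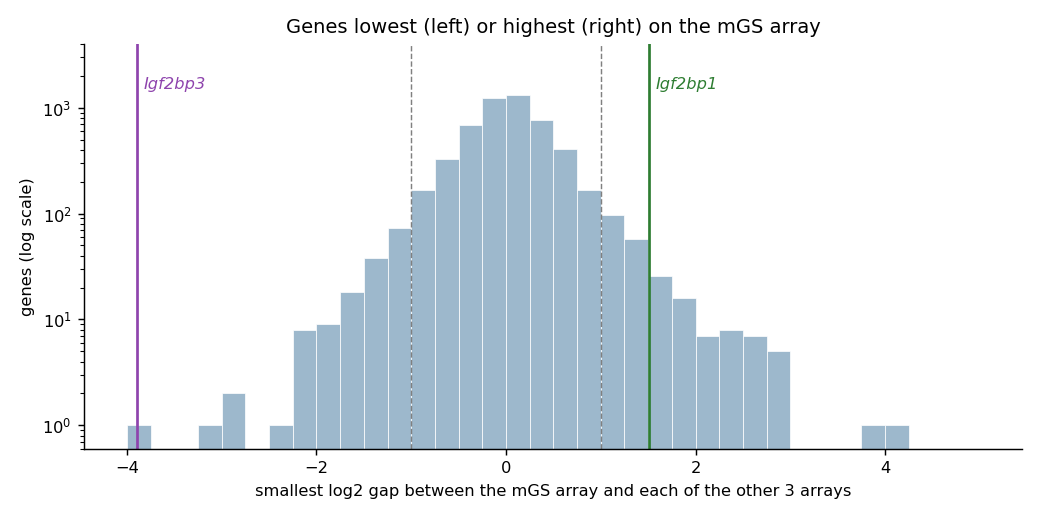
Number of genes (y axis, log scale) by the smallest log2 gap between the mGS array and each of the other 3 arrays (x axis); genes whose mGS value lay between the others are left out and dashed lines mark 2-fold. With signals under the floor raised to it, Igf2bp3, by 1422610_s_at, stands at -3.89, at the left end of all genes. Its other probe sets had gaps of -2.56 to -1.16, and both ends of that range, 1422611_s_at and 1450687_at, are bounds. Igf2bp1, by 1449210_at, stands at 1.51, while its other 3 probe sets had gaps of 0.59 or less.

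Igf2bp3 is transcribed in embryonic fibroblasts as well, so fibroblast markers are set beside it. Of 22 fibroblast markers compared between ES and mGS, 19 passed 2-fold upward on the ES array and 0 downward, against 6.90% and 5.13% of all genes, and their median log2 difference was 2.86. Summed over 23 measured markers, their signal was 6030 on the GS, 33100 on the mGS, 107000 on the ES and 9810 on the Trp53 KO array. The markers did not move alike: the collagen gene Col3a1 read 2015 on the ES array and lay under the floor on the other arrays, whereas Fn1, Sparc and Vim read 10100, 6906 and 7871 on the mGS array and made up most of its sum. In all, 14 of the 23 markers lay above the floor on the GS, 16 on the mGS, 22 on the ES and 17 on the Trp53 KO array. Igf2bp3 had its high ES value where these markers were high. It also read 1504 and 2352 on the GS and Trp53 KO arrays, where the marker sum was lowest. Some markers were lowest on the mGS array, as Igf2bp3 was. Pdgfra read 388 on the GS, 376 on the ES and 351 on the Trp53 KO array and lay under the floor on the mGS array. Between mGS and GS, 2 of 17 markers, Pdgfra and Col5a1, passed 2-fold downward on the mGS array and 9 upward, against 16.5% and 15.3% of all genes. In RNA of a whole culture, fewer cells of a type and less RNA per cell cannot be told apart, and the part of fibroblasts in the ES value of Igf2bp3 was not tested.

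**Figure D4:**
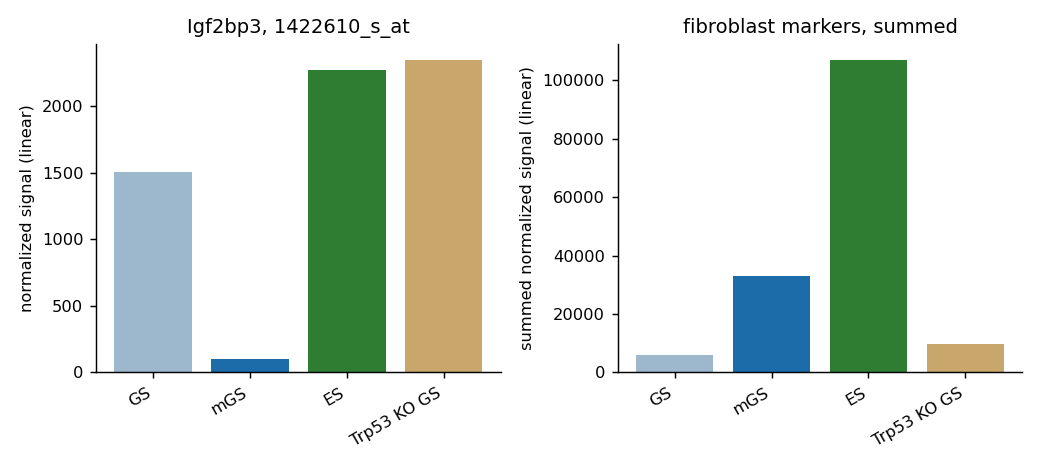
Normalized signal of Igf2bp3 probe set 1422610_s_at (left) and summed normalized signal of 23 fibroblast markers (right) on the 4 arrays, both on linear axes from 0, with 1 bar per array and no replicates. The Igf2bp3 signal was 101 on the mGS array and 1504 to 2352 elsewhere, while the marker sum was highest on the ES array, at 107000, and next on the mGS array, at 33100.

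The promoter of Igf2bp3 is shown because its signal was low in mGS cells alone. It lies at chr6:49214905-49215204 of GRCm38.p6 on the minus strand, from RefSeq, written along the gene, with the E-box CACGTG, which reads the same on both strands, in capitals:
Igf2bp3 promoter: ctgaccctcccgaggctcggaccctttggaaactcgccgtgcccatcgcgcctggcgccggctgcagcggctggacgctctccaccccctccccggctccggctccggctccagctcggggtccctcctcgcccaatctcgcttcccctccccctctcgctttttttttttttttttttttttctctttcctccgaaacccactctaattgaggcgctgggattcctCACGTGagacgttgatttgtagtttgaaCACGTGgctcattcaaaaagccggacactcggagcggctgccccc
The E-box occurs at 2 places, with its first base 23 before the start site and at base 6 after it, and at least 2 such matches are held by 0.594% of 32851 promoters. The window also holds 1 CCAAT, 118 bases before the start site, no TATA box letters and no octamer on either strand. Its 25 CpG dinucleotides compare with an upper quartile of 20 over all promoters. The Lin28b promoter holds 1 E-box, and those of L1td1, Lin28a and Igf2bp2 none; Igf2bp1 is not in the table used here.

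Transcripts that IGF2BP proteins bind did not differ together between mGS and GS. Of 12 listed, 10 were measured and 9 compared between mGS and GS, where 2 passed 2-fold upward and 1 downward on the mGS array, against 15.3% and 16.5% of all genes; the median log2 difference was 0.47 against -0.04 over all genes. Igf2, the growth factor gene after which the family is named, read 3511 on the GS, 252 on the mGS, 1388 on the ES and 436 on the Trp53 KO array. It was 13.9-fold lower on the mGS than on the GS array, 5.51-fold higher on the ES than on the mGS array and 8.04-fold lower on the Trp53 KO than on the GS array. Igf2 and Igf2bp3 were both lowest on the mGS array, but on the Trp53 KO array Igf2 was low and Igf2bp3 high. Cd44, an adhesion receptor gene, read 114, 307, 4080 and 75.5 on the GS, mGS, ES and Trp53 KO arrays, and Actb, whose mRNA IGF2BP1 localises, read 32460 to 34210 on all 4. Between ES and GS, 4 of 9 were higher and 1 lower on the ES array, against 17.4% and 17.2% of all genes, at a median of 0.04. Between ES and Trp53 KO, 4 of 9 were higher and 0 lower, against 18.8% and 21.5%, at a median of 0.59. From mGS to ES, 3 of 9 were higher, namely Igf2, Cd44 and the Hedgehog effector gene Gli1, and 0 lower, against 6.90% and 5.13% of all genes, at a median of 0.30, with the fibroblast markers high on the same ES array and their part not tested; between Trp53 KO and GS, 1 of 7 was higher, Mapk4, and 1 lower, Igf2, against 9.77% and 6.93% of all genes, with a median of -0.14.

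Genes of proteins found with LIN28 or IGF2BP proteins in ribonucleoprotein particles lay mostly within 2-fold. Of 11 compared, none was higher and 2 lower on the mGS than on the GS array, against the shares of 15.3% and 16.5% over all genes, at a median log2 difference of -0.09: Msi1, an RNA-binding protein gene of neural stem cells, by at least 5.69-fold, and Stau1, a double-stranded RNA-binding protein gene of mRNA transport, by 2.22-fold. Dhx9, an RNA helicase gene, and Ybx1, a cold shock domain gene, were within 2-fold, with log2 differences of -0.61 and 0.64. Between ES and mGS, Msi1 alone passed 2-fold, with an ES value at least 2.56-fold above mGS, against 6.90% higher and 5.13% lower over all genes. The list median was -0.15. Between Trp53 KO and GS none of 11 differed by 2-fold, against 9.77% higher and 6.93% lower over all genes, with a median of 0.05.

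IGF2BP proteins can act as readers of the mRNA mark m6A, so the genes that write, erase and read it otherwise were listed too. None of 13 compared differed by 2-fold between mGS and GS, against 15.3% higher and 16.5% lower over all genes, with a median log2 difference of -0.32. On the ES array 1 was higher than on the mGS array, Mettl14, a subunit of the writer complex, by 3.37-fold, and 0 were lower. Over all genes these shares were 6.90% and 5.13%, and the list median was -0.07. Between Trp53 KO and GS, 2 were higher, Mettl14 by 3.05-fold and the eraser gene Fto by 2.49-fold, and none lower, against 9.77% and 6.93% of all genes, with a median of 0.17. Mettl14 read 267 and 191 on the GS and mGS arrays against 643 and 816 on the ES and Trp53 KO arrays, the pairs that also differ in the dap control, whose part was not tested.

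**Figure D5:**
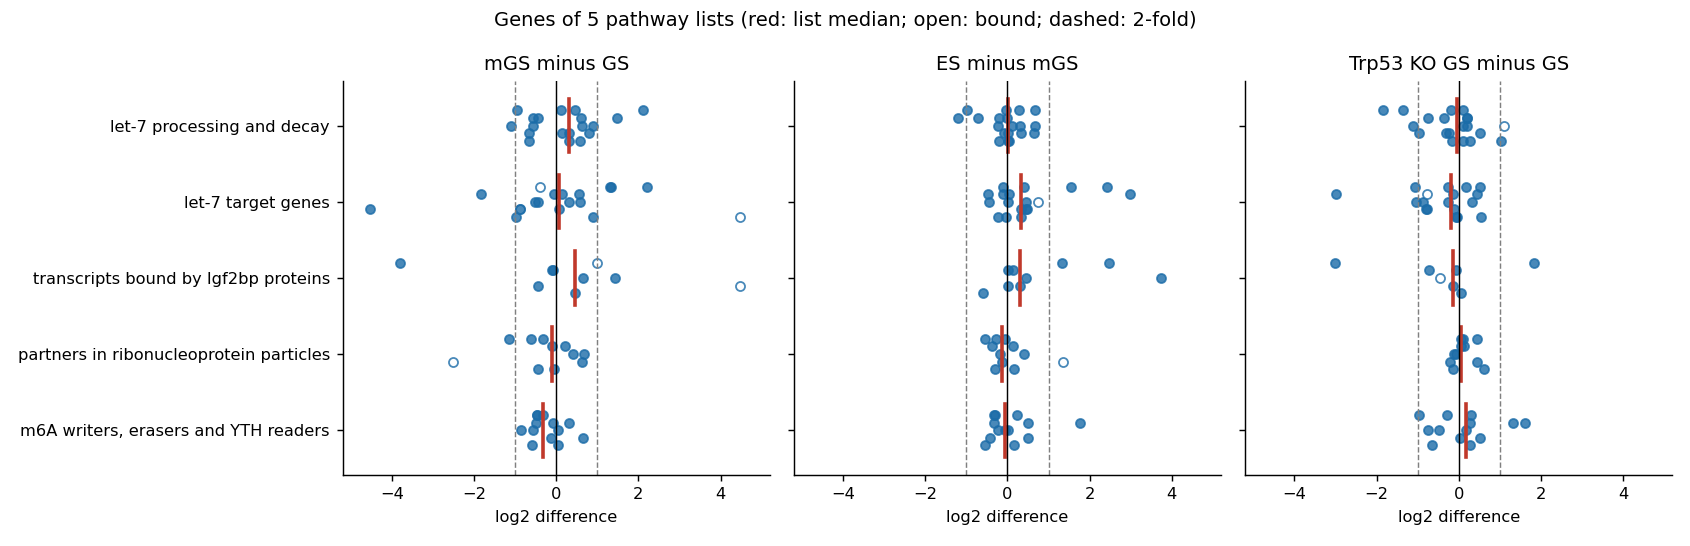
Log2 difference (x axis) of single genes in 5 lists of genes that work with LIN28 or IGF2BP proteins or are bound by them (y axis), in 3 comparisons; red bars are list medians, open circles bounds and dashed lines 2-fold. List medians lay between -0.32 and 0.47, and the widest differences were those of Ccnd2, Myc and Igf2 for mGS minus GS.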

How the data were processed

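The authors made labelled targets from Trizol RNA by the standard Affymetrix procedure, per the labels' protocols, and deposited for each probe set a linear intensity; no source used here names the software behind it. Deposited values have a mean of 500 on each array after 2% was trimmed from each end. Of 45101 probe sets, 64 controls were set aside. The log2 medians ranged over 0.29 and the upper quartiles over 0.27, both above 0.2, and log2 values were quantile normalized, which hides any change in total RNA. Of the 45037 used, 34945 had 1 platform symbol, updated by gene identifier through the table of GRCm38.p6 where 34741 matched, 932 had several and were not named, and 9160 were unnamed. The platform table carries no Igf2bp2. A gene took its probe set with the highest mean.

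Each comparison is a difference of log2 values between arrays, with a floor at the array median and counts past 2-fold; there is no test. Of 190 listed genes, 175 were named on the array; the other genes were not analysed here. Members, lists and the naming rule (all members; of each list those past 2-fold, the widest first, and Dis3l2, Trim71, Tut4, Tut7, Hmga2 and Igf2; the 3 nearest genes in profile for members that span 2 on the log2 scale) were chosen with earlier results of these data known. The steps were tested on simulated data. Software was numpy 2.4.6, pandas 2.3.3 and matplotlib 3.10.9 under Python 3.11.15.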

Additional observations from a re-analysis of the deposited data

How the results depend on the processing

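Alternatives were the values as deposited, median centring, no floor, a floor at the 30th or the 60th percentile, 32 added before log2, averaged probe sets of a gene, omission of probe sets named _x_at and _s_at, and, added after seeing the data, the Trp53 KO array in place of GS. No member probe set at least 2-fold apart changed direction under any of these: 415 values moved by at most 1.5-fold and 39 by more. Of the 39, 18 came from the Trp53 KO array in place of GS, where 8 moved less. Values as deposited, median centring and 32 added before log2 each left all 64 values within 1.5-fold. Averaged probe sets moved 7 member gene values by more than 1.5-fold, turned 1 and left 11 within it. The Lin28a gene value for ES minus mGS turned to -0.11 with the mean of its probe sets. Leaving out _x_at and _s_at probe sets left 3 member probe sets lower for mGS minus GS and 4 higher for ES minus mGS, because fewer were counted. Without the floor, 2 were lower for ES minus GS and 1 was higher for Trp53 KO minus GS, and with Trp53 KO in place of GS none, 0, was lower on the ES array.

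Counts of all genes grew without the floor, to 3999 higher and 4021 lower for mGS minus GS, 2747 and 2574 for ES minus mGS, 4168 and 4100 for ES minus GS, 3166 and 2597 for Trp53 KO minus GS, and 1544 and 1671 for the division by medium. With the floor at the 30th percentile they were 1397 and 1167 for ES minus mGS, and 1759 were higher for Trp53 KO minus GS. Marker lists with few genes above the floor turned over: the endoderm median, -1.40 for mGS minus GS, -1.46 for ES minus GS and -1.03 for Trp53 KO minus GS, became 0.54 at the 30th percentile and 1.33 without a floor for mGS minus GS, 1.23 and 1.28 for ES minus GS, and 0.57 and 0.97 for Trp53 KO minus GS, and the neuroectoderm median, 2.60 and 2.86 for mGS and ES minus GS, became -0.38 and -0.30 without a floor. The leukocyte median for mGS minus GS, 0.80, became -0.60 at the 30th percentile and -0.76 without a floor. Low signal limits Lin28b on all arrays, L1td1 in the GS medium and Igf2bp3 in mGS cells.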
